A study of Mus musculus with 12 samples.

Results

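MHC class II molecules carry peptides from ingested protein to the surface of dendritic cells, Langerhans cells, macrophages and B cells, where CD4 T cells read them. Their alpha and beta chains pair in the endoplasmic reticulum around the invariant chain (Cd74), which is then cut by cathepsin S (Ctss) in the endosome, and the H2-DM dimer exchanges its last fragment for a peptide. The coactivator CIITA switches class II chain genes on at promoters that carry a shared pair of motifs bound by RFX and NF-Y, and interferon gamma is its best known inducer outside professional antigen-presenting cells. The 8 genes described here were listed by name: the chains H2-Aa, H2-Ab1 and H2-Eb1, the loading factors H2-DMa and H2-DMb1, the invariant chain Cd74, the protease Ctss and the regulator Ciita. All 8 were among the 23469 gene rows of the count table, and all 8 were among the 15341 genes with enough counts to be tested.

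RNA was sequenced from whole skin of BALB/C mice in 12 libraries, 3 in each of 4 groups. The backs of all mice were shaved on day 0, patched from day 1 to day 4 and sampled from the patched area on day 5. In the ASP groups the gauze patch held 200 µg of an extract of the mould Aspergillus fumigatus, and the control groups carry the abbreviation SAL, not spelled out in the labels. One genotype is wild type. The other is given as SCCA2KO in the titles, as Serpinb3a-transgenic in the genotype field and as Serpinb3a null in the design text, and is called labelled-null below. Serpinb3a itself, a protease inhibitor of stressed epidermis, stood at 0.264 to 1.40 CPM (counts scaled to library size) in the 6 wild-type libraries and at 1.74 to 8.61 CPM in the 6 labelled-null libraries, which goes against the name null. Every direction between genotypes below is therefore drawn by that label alone. Whether replicates came from different animals is not stated, and p-values then cover only the spread between these samples, which may be technical.

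Libraries held 6705396 to 12933436 counts. Transcripts of major urinary protein genes (Mup), which are near-identical copies, took 8.43% to 39.0% of them. Levels are CPM after TMM scaling (a trimmed mean of log ratios between libraries), whose factors ran from 0.647 to 1.28. Libraries ranked their genes alike, with Spearman correlations from 0.854 to 0.965. Wild-type ASP replicate 3 and labelled-null SAL replicate 1 stood farthest from the rest, with median correlations of 0.895 and 0.899, so the counts of genes below were also taken without both. The labelled tissue showed its markers, with a summed level of 8 keratinocyte genes from 3602 to 12280 CPM, while 8 skeletal muscle genes summed to 19450 to 94670 CPM, highest in wild-type SAL replicate 1.

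The promoters of 3 members are shown because they carry the motif pair through which CIITA acts. They are the 120 bases before the RefSeq start of each gene in GRCm38.p6 (mm10), 5′ to 3′ on the strand of the gene. H2-Aa lies at chr17:34287824-34287943 on the minus strand, H2-Eb1 at chr17:34305747-34305866 and H2-DMb1 at chr17:34153071-34153190, both on the plus strand. Capitals mark GNAAC, the core letters of the X box bound by RFX, and ATTGG, the Y box bound by NF-Y, which is CCAAT read on the other strand.
H2-Aa: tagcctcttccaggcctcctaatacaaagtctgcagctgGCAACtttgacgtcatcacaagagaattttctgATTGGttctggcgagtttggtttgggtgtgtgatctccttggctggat
H2-Eb1: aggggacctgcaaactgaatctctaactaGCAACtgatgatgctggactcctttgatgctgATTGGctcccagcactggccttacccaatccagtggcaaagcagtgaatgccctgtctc
H2-DMb1: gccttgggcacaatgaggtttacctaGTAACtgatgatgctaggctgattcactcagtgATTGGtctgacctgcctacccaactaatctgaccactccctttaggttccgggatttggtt
Between both motifs lie 28 bases in H2-Aa, 27 in H2-Eb1 and 28 in H2-DMb1. The pair, GNAAC followed by ATTGG with 24 to 32 bases between them on the strand of the gene, was in 3 of the 5 members with a promoter in the table, and it was not in the windows of H2-DMa and Ctss. It was also in 3 of 4 other genes of the class II locus, and in 0.642% of 32851 windows of 250 bases before a gene start. ATTGG or CCAAT alone, on either strand, was in 33.8% of those windows. The spacing was chosen after these sequences were seen, so the match is a description. Promoters of H2-Ab1, Cd74 and Ciita were not used here.

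The class II chains pair as I-A (H2-Aa with H2-Ab1) and I-E (H2-Ea with H2-Eb1). H2-Aa, the alpha chain of I-A, lies at chr17:34282744-34287823 and was counted 656 to 3574 times a library. It stood at 97.6, 196 and 176 CPM in wild-type SAL replicates 1, 2 and 3, at 208, 248 and 128 CPM in wild-type ASP, at 105, 428 and 193 CPM in labelled-null SAL and at 164, 173 and 252.5 CPM in labelled-null ASP. Labelled-null SAL held both the second lowest and the highest library, and all 4 groups overlapped. The means were 156.8 ± 52.2, 194.6 ± 61.2, 241.9 ± 167 and 196 ± 48.7 CPM in that order (SD, n = 3).

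H2-Ab1, the beta chain of I-A, lies beside it at chr17:34263227-34269418. It stood at 67.25, 82.8 and 58.3 CPM in wild-type SAL, at 94.7, 77.6 and 93.6 CPM in wild-type ASP, at 95.85, 145 and 108 CPM in labelled-null SAL and at 96.8, 54.3 and 47.9 CPM in labelled-null ASP. The lowest labelled-null SAL library was above all 6 wild-type libraries, and labelled-null ASP spanned the range from one of its highest values, in replicate 1, to the 2 lowest of all 12. The means were 69.4 ± 12.4, 88.6 ± 9.58, 116 ± 25.6 and 66.3 ± 26.6 CPM (SD, n = 3). Partner chains did not keep 1 ratio: there were 109 to 527 H2-Aa counts for every 100 H2-Ab1 counts in a library.

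H2-Eb1, the beta chain of I-E, lies at chr17:34305867-34316674. It stood at 9.79, 24.2 and 25.97 CPM in wild-type SAL, at 27.6, 68.0 and 24.8 CPM in wild-type ASP, at 24.4, 48.2 and 33.6 CPM in labelled-null SAL and at 28.3, 27.2 and 24.3 CPM in labelled-null ASP. A single library set each extreme, wild-type SAL replicate 1 the lowest and wild-type ASP replicate 2 the highest, and labelled-null ASP was the tightest group. The means were 19.97 ± 8.87, 40.1 ± 24.1, 35.4 ± 11.99 and 26.6 ± 2.04 CPM (SD, n = 3). Its partner H2-Ea, no member of the list, was counted 142 to 647 times in every library and stood at 22.7 to 74.4 CPM. C57BL/6 mice, the strain of the reference genome, do not make this chain because of a promoter deletion, whereas BALB/C mice do. Class II chains differ in sequence between both strains, and what that did to the number of reads placed on each chain was not tested.

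**Figure D1:**
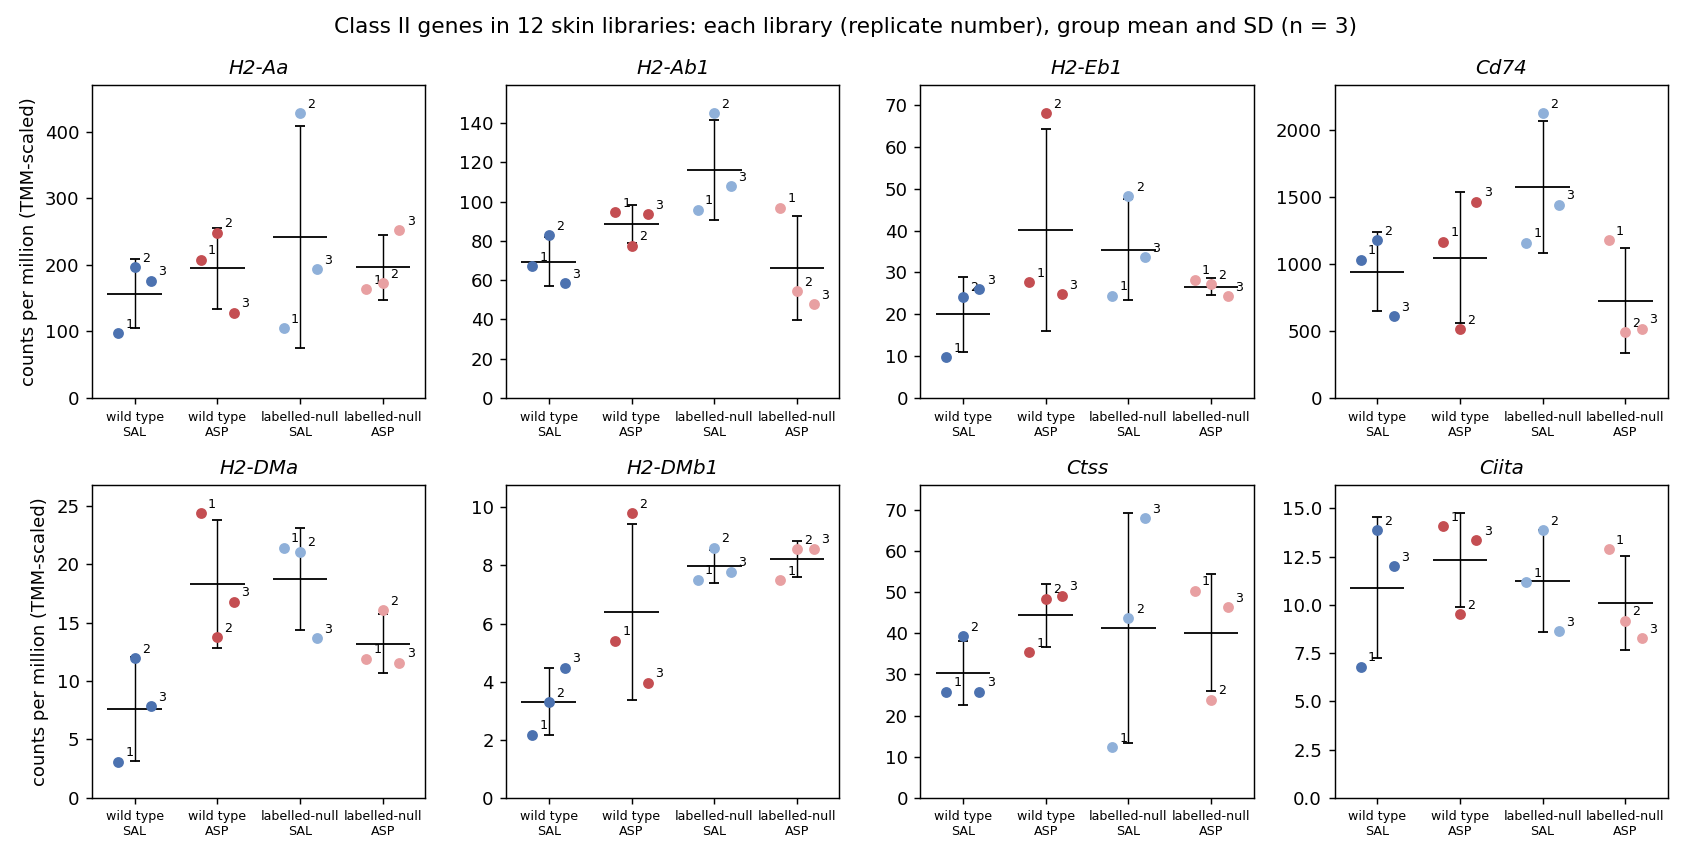
Level of each of the 8 class II genes, in TMM-scaled CPM, in the 12 skin libraries by group, with points numbered by replicate, a black line at the group mean and bars for the SD (n = 3). Wild-type SAL replicate 1 was the lowest of all 12 libraries for 5 genes (and for 7.8% of all tested genes), and labelled-null SAL replicate 2 the highest for 3 (9.35%). Labelled-null SAL replicate 2 had the smallest TMM factor, 0.647, which raises its scaled levels, and the largest share of Mup counts, 39.0%.

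Cd74 encodes the invariant chain, the chaperone that fills the groove until the endosome is reached, and lies on chromosome 18. It was the member with the highest level and was counted 4689 to 17742 times a library. It stood at 1033, 1179 and 612 CPM in wild-type SAL, at 1167, 512 and 1463 CPM in wild-type ASP, at 1158, 2123 and 1443 CPM in labelled-null SAL and at 1175, 489 and 516 CPM in labelled-null ASP. The lowest libraries were 2 of labelled-null ASP and 1 of wild-type ASP, while replicate 1 of both groups stood near the middle of the range. The means were 941 ± 294, 1047 ± 487, 1574 ± 496 and 727 ± 389 CPM (SD, n = 3). A microRNA gene within Cd74 on its strand, Mir5107, was listed with 8.66 to 11.03 counts for every 100 of Cd74, so the value of Mir5107 cannot be told apart from Cd74.

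H2-DMa and H2-DMb1 form the dimer that edits peptides in the endosome. H2-DMa, at chr17:34119693-34139101, stood at 3.08, 11.9 and 7.82 CPM in wild-type SAL, at 24.4, 13.7 and 16.8 CPM in wild-type ASP, at 21.4, 21.1 and 13.7 CPM in labelled-null SAL and at 11.9, 16.1 and 11.6 CPM in labelled-null ASP. Every wild-type SAL library was below every wild-type ASP and every labelled-null SAL library. The means were 7.61 ± 4.43, 18.3 ± 5.48, 18.7 ± 4.37 and 13.2 ± 2.51 CPM (SD, n = 3). H2-DMa overlaps Brd2, a chromatin reader on the opposite strand counted at 47.2 to 121 CPM, and 8.43% of the 50-base stretches of H2-DMa transcripts also occur there. Whether counting used the strand is not given in the sources used here, so reads of the overlap cannot be assigned.

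H2-DMb1, at chr17:34153191-34160229, stood at 2.175, 3.29 and 4.48 CPM in wild-type SAL, at 5.41, 9.80 and 3.96 CPM in wild-type ASP, at 7.51, 8.61 and 7.78 CPM in labelled-null SAL and at 7.50, 8.56 and 8.58 CPM in labelled-null ASP. All 6 labelled-null libraries lay within a narrow band, and 5 of 6 wild-type libraries lay below that band. The means were 3.32 ± 1.15, 6.39 ± 3.04, 7.97 ± 0.576 and 8.22 ± 0.621 CPM (SD, n = 3). Counts were low, 24 to 113 a library, and 22.7% of its 50-base stretches also occur in the neighbouring copy H2-DMb2, so the value of either is uncertain.

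Ctss encodes cathepsin S, the endosomal protease that cuts the invariant chain, and lies at chr3:95526786-95556405. It stood at 25.8, 39.3 and 25.8 CPM in wild-type SAL, at 35.5, 48.45 and 49.1 CPM in wild-type ASP, at 12.3, 43.7 and 67.95 CPM in labelled-null SAL and at 50.4, 23.8 and 46.3 CPM in labelled-null ASP. Labelled-null SAL alone spanned the whole range of the gene, from the lowest to the highest of the 12 libraries. The means were 30.3 ± 7.76, 44.3 ± 7.70, 41.3 ± 27.9 and 40.2 ± 14.3 CPM (SD, n = 3).

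Ciita, the coactivator that turns class II genes on, lies at chr16:10480014-10531064. It stood at 6.80, 13.9 and 12 CPM in wild-type SAL, at 14.1, 9.52 and 13.3 CPM in wild-type ASP, at 11.2, 13.9 and 8.64 CPM in labelled-null SAL and at 12.9, 9.17 and 8.25 CPM in labelled-null ASP. It varied least of the 8, with its highest library at 2.07 times its lowest, against 3.03 to 7.91 times in the other members. The means were 10.9 ± 3.67, 12.3 ± 2.44, 11.2 ± 2.62 and 10.1 ± 2.45 CPM (SD, n = 3). Dexi overlaps Ciita on the opposite strand, at 1.59 to 11.95 CPM, and shares 1.46% of its 50-base stretches.

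Per kilobase of the longest protein-coding transcript, the mean over all 12 libraries was 760.6 CPM for Cd74, 175 for H2-Aa, 70.3 for H2-Ab1, 28.8 for Ctss, 18.3 for H2-Eb1, 7.21 for H2-DMa, 4.61 for H2-DMb1 and 1.85 for Ciita. The chains of I-A thus stood above that of I-E, and the loading factors and the regulator at the bottom of the order. Between groups, 5 of the 8 members had their lowest mean in wild-type SAL, as did 23.5% of all tested genes, and 4 had their highest in labelled-null SAL, as did 27.8%. When the 4 groups of each member were put in order of their means, the libraries of neighbouring groups overlapped in 23 of 24 pairs, so no order of 4 groups is set beyond the spread. The exception was H2-Ab1, whose labelled-null SAL libraries lay above those of wild-type ASP, which differ in both genotype and treatment.

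The first comparison, ASP against SAL in wild-type skin, asks what the mould extract did to normal skin. All 8 members had a higher fitted mean under ASP, with log2 fold changes from 0.15 (Cd74) to 1.27 (H2-DMa) and a median of 0.45, against 0.02 over all tested genes, of which 51.5% were positive. H2-DMa had a log2 fold change of 1.27 ± 0.44 (SE, edgeR unadjusted p = 0.0102), H2-Eb1 of 1.01 ± 0.43 (edgeR unadjusted p = 0.0318) and H2-DMb1 of 0.95 ± 0.45 (edgeR unadjusted p = 0.049). None passed after Benjamini-Hochberg adjustment over all genes, where every member had adjusted p = 0.999 in edgeR's quasi-likelihood test, and 0% of all genes passed. These 3 of 8 with a higher mean at an unadjusted p under 0.05 compare with 2.87% of all genes, and the 1 member whose groups did not overlap, H2-DMa, with 3.18% that were higher without overlap. Of the remaining members, Ctss was at 0.55 ± 0.46, H2-Ab1 at 0.35 ± 0.31, H2-Aa at 0.31 ± 0.44 and Ciita at 0.18 ± 0.38 on the log2 scale. In whole skin, more cells of a type and more RNA per cell cannot be told apart.

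The wild-type difference leaned on single libraries. Without wild-type SAL replicate 1, 7 of 8 members stayed positive with a median of 0.39, and 1 of 8 had an unadjusted p under 0.05. That count was also 1 without wild-type ASP replicate 1 and 1 without wild-type ASP replicate 2. Without wild-type ASP replicate 2 the log2 fold change of H2-Eb1 went from 1.01 to 0.39 and that of H2-DMb1 from 0.95 to 0.50, whereas that of H2-DMa was 1.44. That library also stood apart in its balance of long and short transcripts, described with the ratio of H2-Aa to Cd74. Without both libraries farthest from the rest, 7 of 8 were positive and 3 had an unadjusted p under 0.05, with Cd74 at -0.17.

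Among markers of antigen-presenting cells, 9 of 12 macrophage genes and 10 of 13 dendritic and Langerhans cell genes were positive for ASP in wild type, with 1 in each list at an unadjusted p under 0.05 and 0 passing after adjustment in edgeR. The summed level of the 12 macrophage markers was lowest in wild-type SAL replicate 1, as were 5 members and 7.8% of all tested genes. It was 473 to 668 CPM in wild-type SAL and 727 to 974 in wild-type ASP, without overlap. That separation rested on the lysozyme gene Lyz2: without it the sums were 292 to 365 and 288 to 453 CPM, which overlapped, and the lowest was wild-type ASP replicate 1. The sum of 12 dendritic and Langerhans cell markers without Xcr1 was 81.6 to 116 CPM and 104 to 146 CPM, which also overlapped, lowest in wild-type SAL replicate 1 and highest in wild-type ASP replicate 2, the lowest and highest libraries of H2-Eb1 and of H2-DMb1. Xcr1, a chemokine receptor of cross-presenting dendritic cells, stood at 75.9 to 598 CPM and would set that sum alone. With Xcr1 the list ran from 291 to 536 CPM in wild-type SAL and from 222 to 662 CPM in wild-type ASP. Clec9a and Batf3 of the same list stood far lower, at 0.673 to 7.99 and 0.0759 to 2.36 CPM. Which cells the Xcr1 counts came from was not tested. Of the markers listed, Flt3 was at 0 in 2 of 12 libraries, Ccr7 in 1 and Aif1 in 1, while the Langerhans cell lectin Cd207 had 41 to 239 counts in every library. The part of these cells in the class II levels was not tested. Among B cell markers, Ms4a1 was at 0 to 5 counts a library and Pax5 at 0 in 11 of 12 libraries, but the 2 that could be tested were present in all, Cd22 at 3.64 to 8.63 CPM and Jchain, of antibody-secreting cells, at 6.07 to 28.6 CPM.

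In labelled-null skin the same contrast rests on 6 other libraries. There, 7 of 8 members had a lower fitted mean under ASP (median log2 fold change -0.36, against -0.01 over all genes, of which 48.8% were positive), but scaling by library totals alone made 5 of 8 positive. Cd74 was at -1.12 ± 0.47 (SE, edgeR unadjusted p = 0.0286) and H2-Ab1 at -0.81 ± 0.31 (edgeR unadjusted p = 0.0179), and no member's groups were free of overlap, against 10.5% of all genes. The 2 lower members at an unadjusted p under 0.05 compare with 2.97% of all genes. No member passed after adjustment, with edgeR adjusted p from 0.990 to 0.996, and 0% of all genes passed. H2-DMa was at -0.50 ± 0.43, H2-Eb1 at -0.41 ± 0.43, H2-Aa at -0.30 ± 0.44, Ciita at -0.15 ± 0.38, Ctss at -0.05 ± 0.46 and H2-DMb1 at 0.04 ± 0.44 on the log2 scale. The count at an unadjusted p under 0.05 was 0 without labelled-null SAL replicate 2, where 5 of 8 were negative with a median of -0.08, 0 without labelled-null ASP replicate 2 and 0 without labelled-null ASP replicate 3. Macrophage markers summed to 628 to 1376 CPM in labelled-null SAL and to 723 to 1013 in labelled-null ASP, and dendritic cell markers without Xcr1 to 129 to 138 and 111 to 116 CPM. The latter rested on Cd209a, a lectin of dermal dendritic cells, without which the sums were 75.1 to 105 and 94.9 to 103 CPM. Of the 13 dendritic cell markers 7 were positive, and 9 of 13 with library totals alone.

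**Figure D2:**
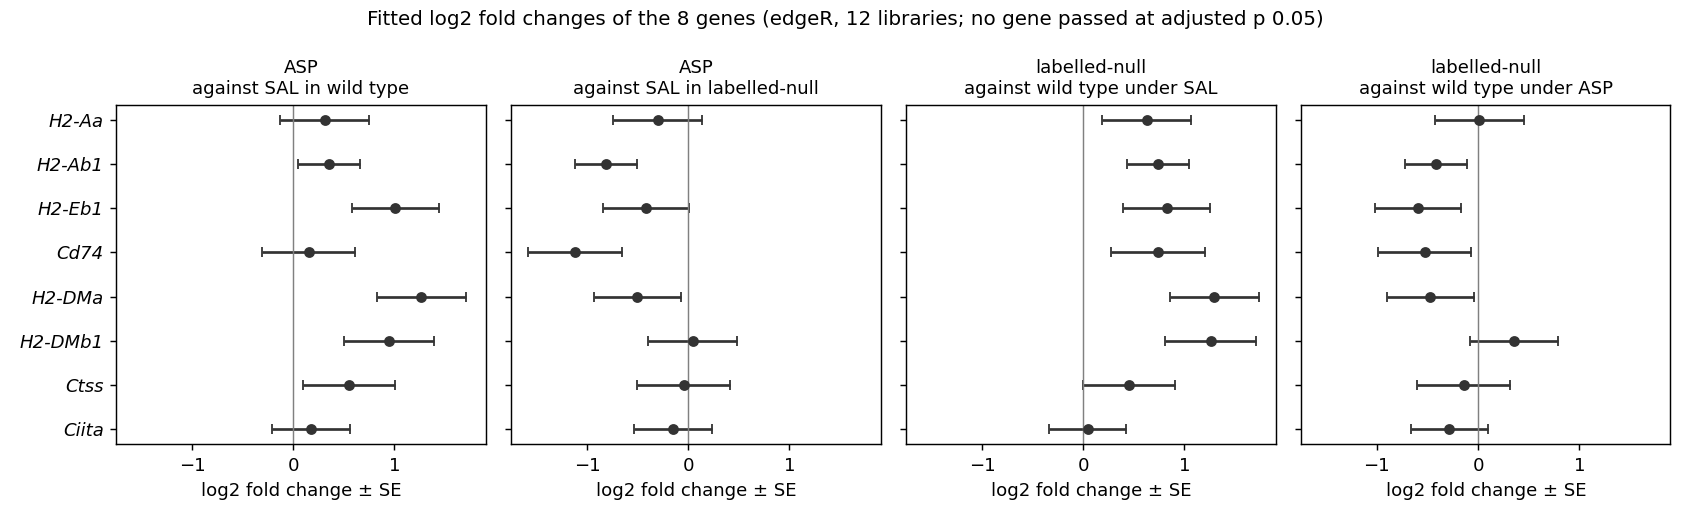
Fitted log2 fold changes of the 8 class II genes in 4 comparisons, with bars for the standard error from edgeR over 12 libraries. All 8 genes lie right of 0 for ASP in wild type and for labelled-null under SAL, and 7 of 8 left of 0 for ASP in labelled-null, where scaling by library totals alone puts 5 of 8 right of 0 (and 7 of 8 for labelled-null under SAL). No gene passed an adjusted p of 0.05, and each panel shares libraries with 2 others.

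Labelled-null against wild type under SAL asks how the genotypes differ without the extract. All 8 members had a higher fitted mean in the labelled-null libraries, with a median log2 fold change of 0.74 against 0.01 over all genes, of which 51.3% were positive, and 7 of 8 did when scaled by library totals alone. H2-DMa was at 1.30 ± 0.44 (SE, edgeR unadjusted p = 0.00892), H2-DMb1 at 1.26 ± 0.45 (edgeR unadjusted p = 0.0122) and H2-Ab1 at 0.74 ± 0.31 (edgeR unadjusted p = 0.0276). For these 3 of 8 all labelled-null libraries lay above all wild-type ones, as in 3.62% of all genes, and 2.21% of all genes were higher at an unadjusted p under 0.05. None passed after adjustment (edgeR adjusted p = 1 for each of the 8), nor did any other gene (0%). H2-Eb1 was at 0.83 ± 0.43, Cd74 at 0.74 ± 0.46, H2-Aa at 0.63 ± 0.44, Ctss at 0.45 ± 0.46 and Ciita at 0.04 ± 0.38 on the log2 scale.

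Single libraries mattered here too. Without wild-type SAL replicate 1, 7 of 8 members stayed positive and 1 had an unadjusted p under 0.05, and without labelled-null SAL replicate 2, 6 of 8 stayed positive and 2 did. Leaving out labelled-null SAL replicate 1 took that count to 6, as did leaving out both libraries farthest from the rest, and scaling by library totals alone took it to 0. The share of all genes at that p was not taken under these settings, so the counts cannot be set against it. Macrophage markers were positive in 9 of 12 genes, and in 7 of 12 with library totals alone. All 12 macrophage markers summed to 473 to 668 CPM in wild-type SAL and 628 to 1376 CPM in labelled-null SAL, which overlapped. Lyz2 averaged 269.9 and 592 CPM in these groups. The other 11 summed to 292 to 365 and 395 to 547 CPM, which did not overlap. Of those 11, C1qc averaged 41.4 and 108 CPM, and a sum without C1qc was not taken. All 3 labelled-null SAL libraries had more summed dendritic cell markers without Xcr1 than any wild-type SAL library, but without Cd209a the sums were 75.1 to 105 against 68.3 to 100.4 CPM and overlapped. There, 10 of 13 such markers tested were positive, but 5 of 13 with library totals alone. Skeletal muscle markers were positive in 1 of 8, and in 0 of 8 with library totals alone, and none had an unadjusted p under 0.05. Of 5 endothelial markers 4 were negative under every scaling run. Among them were Cdh5 at -1.13 ± 0.47 (SE, edgeR unadjusted p = 0.0293), Kdr at -1.01 ± 0.48 (edgeR unadjusted p = 0.0498) and Pecam1 at -0.80 ± 0.38 (edgeR unadjusted p = 0.0485), each with edgeR adjusted p = 1. Over all genes, 670 of 15341 had an edgeR unadjusted p under 0.05 in either direction in this comparison. Vwf went the other way, with means of 8.49 CPM in wild-type SAL and 14.7 CPM in labelled-null SAL. Jchain was at 1.00 ± 0.38 (SE, edgeR unadjusted p = 0.0182, adjusted p = 1), with means of 11.5 and 23.0 CPM. The part of these cells was not tested.

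The genotypes were also compared under ASP. There, 6 of 8 members had a lower fitted mean in labelled-null, with a median of -0.35 against -0.04 over all genes, of which 46.6% were positive, and 7 of 8 did with RLE size factors or library totals alone. None had an unadjusted p under 0.05, against 3.07% of all genes in either direction, none was free of overlap (7.62% of all genes), and 0% of genes passed after adjustment (edgeR adjusted p = 0.999 for each member). H2-Eb1 was at -0.59 ± 0.43, Cd74 at -0.53 ± 0.46, H2-DMa at -0.47 ± 0.43, H2-Ab1 at -0.42 ± 0.31 and H2-DMb1 at 0.36 ± 0.44 on the log2 scale. Without labelled-null ASP replicate 1 the median was -0.48, and 2 of 8 were lower at an unadjusted p under 0.05, a setting under which the share of all genes was not taken. Without wild-type ASP replicate 2, H2-Eb1 was at 0.02. H2-Aa was at 0.01 ± 0.44, and at -0.01 with RLE size factors and -0.06 with library totals alone.

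Whether the response to ASP differed between genotypes was tested as an interaction. All 8 members had a negative interaction, a fitted ASP difference that was lower, sign included, in labelled-null than in wild type. The median was -1.03 on the log2 scale against -0.06 over all genes, of which 46.7% were positive, and with library totals alone 7 of 8 were negative. The fitted ASP difference was positive in wild type for all 8. In labelled-null it was negative for 7 of 8, and for 3 of 8 with library totals alone. H2-DMa had -1.77 ± 0.61 (SE, edgeR unadjusted p = 0.0104), H2-Ab1 -1.16 ± 0.43 (edgeR unadjusted p = 0.0163) and H2-Eb1 -1.42 ± 0.60 (edgeR unadjusted p = 0.0314). The 3 of 8 at an unadjusted p under 0.05 compare with 2.33% of all genes in that direction. All had edgeR adjusted p = 0.998, and 0% of all genes passed. The count was 1 without labelled-null ASP replicate 3 and 0 with library totals alone. The median was -0.67 without wild-type ASP replicate 2 and -0.69 with library totals alone. This contrast uses the same wild-type SAL libraries as the 2 comparisons above in which all 8 members were positive, so the 3 results are not independent.

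Averaged over genotypes, 6 of 8 members were positive for ASP (49.1% of all genes), 7 of 8 with library totals alone and 3 of 8 without both libraries farthest from the rest. None had an unadjusted p under 0.05 (5.64% of all genes in either direction), 0% of genes passed after adjustment, and the largest was H2-DMb1 at 0.49 ± 0.31 (SE, edgeR adjusted p = 0.894). Averaged over treatments, 7 of 8 were positive in labelled-null (47.4% of all genes), but 3 of 8 with library totals alone. H2-DMb1 had the largest value at 0.81 ± 0.31 (SE, edgeR unadjusted p = 0.0193, adjusted p = 1.00), against 1.69% of genes higher at that p. It averaged 4.85 CPM over the wild-type and 8.09 CPM over the labelled-null libraries, and its neighbour H2-DMb2, with which it shares sequence, 2.74 and 5.09 CPM. Of all genes, 0.00652% passed in that comparison, and no member was among them.

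The members did not move as 1 block from library to library. Over the 28 pairs, Pearson's r of log2 CPM across 12 libraries had a median of 0.362. Cd74 and H2-Ab1 were the most alike, with r = 0.888 (permutation p = 0.00024, adjusted over 28 pairs 0.00672), rho = 0.804 (permutation p = 0.0026, adjusted 0.0728), r = 0.812 without the 2 libraries farthest from the median of H2-Ab1, and r = 0.861 after group means were removed. H2-Eb1 and H2-DMb1 had r = 0.765 (permutation p = 0.00114, adjusted 0.0160), rho = 0.678 (permutation p = 0.0182, adjusted 0.255) and r = 0.888 after group means were removed, but r = 0.454 without the 2 farthest libraries of H2-Eb1, so that relation rests on those. No other pair passed. The partner chains H2-Aa and H2-Ab1 had r = 0.238 (permutation p = 0.460, adjusted 0.686) and rho = 0.042 (permutation p = 0.903). H2-Aa and Cd74 had r = 0.035 (permutation p = 0.916, adjusted 0.932) and rho = 0.042 (permutation p = 0.903), and r = -0.51 without the 2 farthest libraries. H2-DMa and H2-DMb1, the partners of the editing dimer, had r = 0.637 (permutation p = 0.0254, adjusted 0.145) and rho = 0.308 (permutation p = 0.329).

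**Figure D3:**
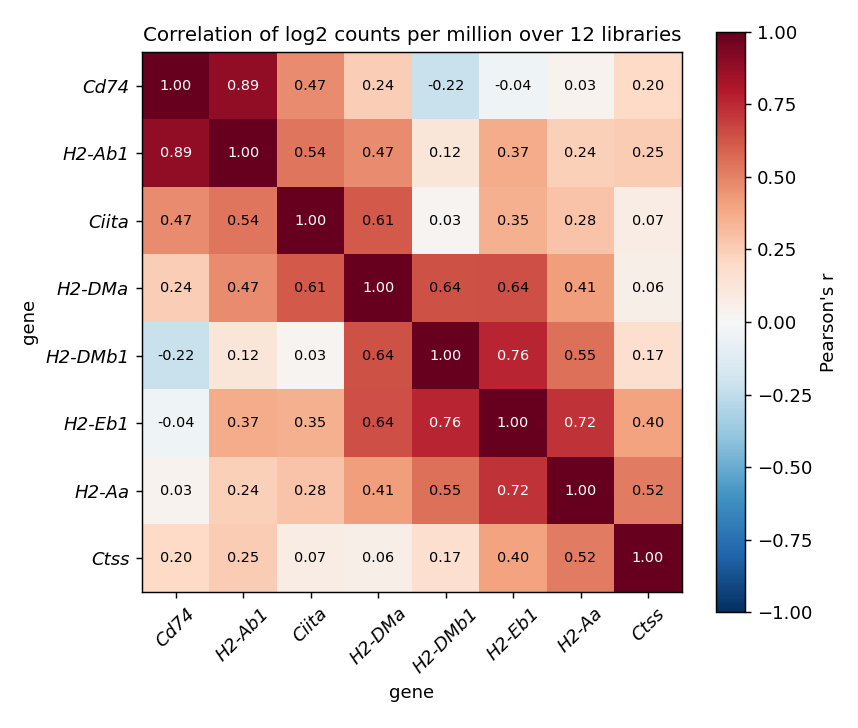
Pearson's r between the log2 CPM of each pair of the 8 class II genes over the 12 libraries, with red for positive and blue for negative values. Cd74 and H2-Ab1 form the strongest pair at 0.888, while Cd74 is near 0 with H2-Aa and H2-Eb1 and at -0.22 with H2-DMb1.

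The looseness between H2-Aa and Cd74 was largest in 3 libraries. There were 9.45, 16.7 and 28.8 H2-Aa counts for every 100 Cd74 counts in wild-type SAL, 17.8, 48.5 and 8.75 in wild-type ASP, 9.05, 20.1 and 13.4 in labelled-null SAL and 13.95, 35.4 and 48.9 in labelled-null ASP. Wild-type ASP replicate 2 and labelled-null ASP replicates 2 and 3 were the highest, and they held the 3 lowest Cd74 levels of all. They also had fewer counts on long transcripts: the median log2 deviation of genes with a transcript of 6703 bases or more, less that of genes of 1325 bases or less, was -1, -0.21 and -0.31 in these 3 libraries. Labelled-null SAL replicate 2 had -0.29 and the other 8 libraries 0.03 to 0.46. Over the 12 libraries the members were related to this balance in different directions. H2-DMb1 had r = -0.69 (permutation p = 0.0146, adjusted over 8 members 0.0593) and rho = -0.90 (permutation p = 0.00026, adjusted 0.00208), with r = -0.74 without wild-type ASP replicates 2 and 3, the libraries farthest from the median balance. H2-Eb1 had r = -0.73 (permutation p = 0.0148, adjusted 0.0593) and rho = -0.55 (permutation p = 0.0715, adjusted 0.191), with r = -0.58 without these libraries. H2-Aa had r = -0.60 (permutation p = 0.0443, adjusted 0.118) and rho = -0.66 (permutation p = 0.0221, adjusted 0.0886), with r = -0.69 without them. Cd74 went the other way, with r = 0.517 (permutation p = 0.0790, adjusted 0.158) and rho = 0.399 (permutation p = 0.200, adjusted 0.400), and r = 0.244 without them. After adjustment the rank correlation of H2-DMb1 passed, lower in libraries with more counts on long transcripts, while no Pearson correlation and no other rank correlation did.

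**Figure D4:**
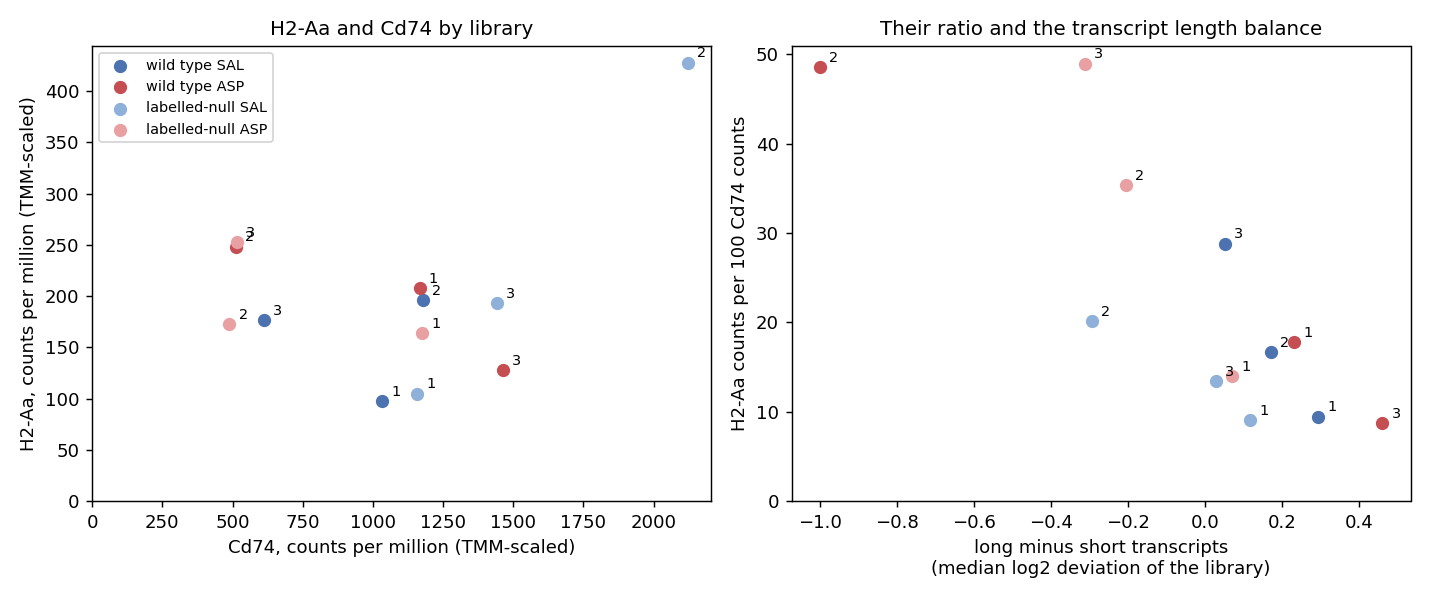
Left, H2-Aa against Cd74 in TMM-scaled CPM in each of the 12 libraries, coloured by group and numbered by replicate. Right, H2-Aa counts for every 100 Cd74 counts against the balance of long and short transcripts, where the 3 highest libraries all have a balance of -0.21 or lower.

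The genes whose levels followed the members most closely were ranked by Pearson's r with the mean of the 8 standardised members over 12 libraries, among 12964 other genes, as a description. Ms4a4c, a membrane protein of the Ms4a family, led with r = 0.869, followed by Arg1 (arginase) at 0.832, Lyz2 (lysozyme) at 0.831, Camkmt at 0.827, Calm2 (calmodulin) at 0.826, Il4i1b at 0.825, Gm5431 at 0.807 and Ndrg4 at 0.797. Without labelled-null SAL replicate 2 and wild-type SAL replicate 1, the libraries with the highest and lowest member mean, Ms4a4c stayed at 0.849 and the other 7 were at 0.339 to 0.634.

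The other genes of the pathway were counted by lists. Of 5 other genes of the class II locus 3 were tested, and none passed after adjustment in any comparison. H2-DMb2 was at 1.32 ± 0.54 in labelled-null against wild type under SAL on the log2 scale (SE, edgeR unadjusted p = 0.0265, adjusted p = 1), and H2-Ea, the partner of H2-Eb1, at 0.32 ± 0.40. H2-Oa and H2-Eb2 had too few counts, 0 to 5 and 0 to 7 a library. Of 7 endosomal processing genes 0 passed in any comparison, and in the same contrast Ifi30, the thiol reductase that opens disulfide bonds of antigens, was at 0.78 ± 0.37 (edgeR unadjusted p = 0.0497) with means of 15.3 and 26.3 CPM.

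Of 7 transcription factor genes of the class II promoter, 0 passed in any comparison. Nfyb, a subunit of NF-Y, was at 1.17 ± 0.54 for ASP in wild type (SE, edgeR unadjusted p = 0.047, adjusted p = 0.999), with 34.7 CPM in wild-type ASP replicate 3 against 7.16 and 15.0 in replicates 1 and 2. Creb1, which binds beside RFX, was at -0.61 ± 0.29 in labelled-null against wild type under SAL (edgeR unadjusted p = 0.0479, adjusted p = 1). Of 7 interferon gamma genes 6 were tested and 0 passed, with medians of 0.00 for ASP in wild type and 0.01 for labelled-null under SAL on the log2 scale. Ifng itself was at 0 counts in 11 of 12 libraries and at 2 in the other, too few for this depth to show a difference.

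Of 5 genes of surface turnover and costimulation 0 passed in any comparison. Cd83, which holds class II at the surface of mature dendritic cells, was at 2.39 ± 0.81 for ASP in wild type (SE, edgeR unadjusted p = 0.00953, adjusted p = 0.999), but it stood at 0.873, 4.29 and 15.5 CPM in wild-type ASP, so that 1 library set the mean. Marchf1, the ligase that removes class II from the surface, was at 1.07 ± 0.40 (edgeR unadjusted p = 0.0157, adjusted p = 0.999), with 5.80, 7.20 and 9.95 CPM in wild-type SAL and 11.5, 19.0 and 17.6 CPM in wild-type ASP, which did not overlap. Under ASP the costimulator Cd86 was at 1.44 ± 0.67 in labelled-null against wild type (edgeR unadjusted p = 0.0451, adjusted p = 0.999), with 17.7 CPM in labelled-null ASP replicate 3. Of 10 class I presentation genes 0 passed, and 7 of 10 were positive for ASP in wild type (8 of 10 with library totals alone) and 9 of 10 negative in the interaction (7 of 10). Psmb8, a subunit of the immunoproteasome, was at -1.65 ± 0.56 in the interaction (edgeR unadjusted p = 0.00889, adjusted p = 0.998).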

How the data were processed

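Per the labels, the 12 libraries hold RNA of patched mouse skin. The authors' deposited table gives raw counts, whole numbers of reads for each Entrez Gene ID. Of its 18 columns, 12 match a sample by genotype, treatment and replicate, and 6 whose names match no sample were left out. Named in the submitters' processing notes are mm10, TopHat, DESeq, bcl2fastq and CASAVA 1.8. How reads were counted, with which annotation and strand setting, is not given in the sources used. Of the gene IDs, 23372 matched a symbol in RefSeq's GRCm38.p6 annotation, and the 97 without one held 7.57% to 15.8% of a library.

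After filterByExpr and TMM scaling, edgeR 4.0.16 (R 4.3.3; glmQLFit, robust on) was fitted to all 12 libraries with 1 coefficient per group. Calls needed an adjusted p under 0.05 (Benjamini-Hochberg, 15341 genes). The biological coefficient of variation was 0.427. With 3 libraries against 3, an exact permutation test cannot go below p = 0.1, so comparisons rest on the model across genes. The model was tested on counts simulated for all 12 libraries from their sizes and each gene's mean over them (15321 genes tested). All genes shared 1 dispersion, 0.182, so a spread that differs between genes was not simulated. Changes were put into wild-type ASP alone, in genes with a mean of at least 1 CPM. For ASP against SAL in wild type the model recovered 2% of 50 genes changed 2-fold, 46% of those changed 4-fold, 94% of 8-fold and 98% of 16-fold, with 5 false calls. Recovery in the real libraries may differ. Sums without Lyz2 or Cd209a were taken after the values were seen, and Xcr1 was left out of the dendritic cell sums for its level. Correlations use log2 CPM with a prior count of 0.5 and 100000 permutations, two-sided. Gene lengths are the longest protein-coding transcripts of GENCODE basic. Sequences come from RefSeq (GRCm38.p6), and 5 members matched a promoter entry.

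The members, gene lists and tests were chosen with earlier results of these data known. Named genes are the 8 members, up to 4 genes per pathway list and comparison with the smallest p, of which those with an unadjusted p under 0.05 are described, and the 8 genes most like the members. Alternatives were RLE and upper-quartile scaling, library totals alone, no filter, at least 2 CPM in 3 libraries, robust off, DESeq2 1.42.0, limma-voom with quality weights (limma 3.58.1), a replicate block, a fit of the 6 libraries compared alone, no Mup genes or IDs lacking a symbol, no 2 farthest libraries, and each library left out. Shares of all genes at an unadjusted p under 0.05 were taken in the main fit only.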

Additional observations from a re-analysis of the deposited data

Results flagged for a closer look

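H2-Ab1, H2-Eb1 and H2-DMa had ASP differences of opposite sign in the 2 genotypes: each of the 3 wild-type ASP libraries was above the mean of wild-type SAL, and each of the 3 labelled-null ASP libraries was below the mean of labelled-null SAL, on the log2 scale. The interactions were -1.161 for H2-Ab1, -1.421 for H2-Eb1 and -1.768 for H2-DMa on the log2 scale. The test of the difference itself did not pass, with edgeR adjusted p = 0.998 for each. The signs also depend on scaling: with library totals alone, H2-Eb1 was positive for ASP in labelled-null too. The labelled-null SAL mean includes replicate 2, whose TMM factor of 0.647 was the smallest of all. H2-Eb1 stood 1.89 above the SAL mean in wild-type ASP replicate 2 and 0.59 and 0.44 above it in replicates 1 and 3. H2-DMa was 1.88, 1.05 and 1.34 above it, and 0.62, 0.19 and 0.66 below it in labelled-null.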

How the results depend on the processing

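No member passed an adjusted p of 0.05 in any comparison under any setting run, and the smallest adjusted p was 0.382. Genes called over the whole table numbered 0 in the edgeR fit of 6 comparisons. With DESeq2 they numbered 2 for ASP in wild type, 2 for ASP in labelled-null, 6 for labelled-null under SAL, 5 for labelled-null under ASP and 1 for the interaction, and for ASP in wild type 1 without the 2 farthest libraries. For the genotype averaged over treatments, where edgeR called 1, they numbered 8 with DESeq2, 3 with limma-voom, 2 without a filter, 0 with library totals alone, 0 with the replicate block, 0 without the 2 farthest libraries, and 0 to 2 with each library left out. Library totals alone shifted the median of all genes by 0.42 (ASP in labelled-null), -0.36 (labelled-null under SAL), 0.35 (interaction), 0.25 (ASP averaged) and -0.19 (genotype averaged).

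Directions of members that turned were all of fold changes that had not passed, and the cause was not tested. With library totals alone these were, for ASP in labelled-null, H2-Aa at 0.25, H2-Eb1 at 0.062, Ciita at 0.28 and Ctss at 0.38. They were Ciita at -0.38 for labelled-null under SAL and at 0.087 for the interaction, H2-Aa at -0.055 for labelled-null under ASP and H2-Ab1 at 0.023 for ASP averaged. For the genotype averaged they were H2-Ab1 at -0.045, H2-Eb1 at -0.17, Cd74 at -0.067 and Ctss at -0.050. For labelled-null under ASP, H2-Aa was at -0.0056 with RLE, -0.0055 with DESeq2, -0.053 with limma-voom and -0.21 without the 2 farthest libraries. With limma-voom Ciita was at -0.0335 for labelled-null under SAL and Ctss at -0.034 for ASP averaged. For ASP in labelled-null Ctss was at 0.014 with upper-quartile scaling and 0.12 with the replicate block. Without the 2 farthest libraries, Cd74 was at -0.17 for ASP in wild type, and H2-Aa at -0.061, Ciita at -0.019 and Ctss at -0.0045 for ASP averaged.

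With each library left out in turn, fold changes that turned ranged as follows. For ASP in wild type, Cd74 ran from -0.17 to 0.48 and Ciita from -0.075 to 0.38. For ASP in labelled-null, H2-Aa ran from -0.66 to 0.39, Ciita from -0.37 to 0.025 and Ctss from -0.48 to 0.52. For labelled-null under SAL, H2-Aa ran from -0.055 to 0.99, Ciita from -0.21 to 0.25 and Ctss from -0.11 to 0.88. For labelled-null under ASP, H2-Aa ran from -0.21 to 0.23, H2-Eb1 from -0.84 to 0.022 and Ctss from -0.37 to 0.13. In the interaction H2-Aa ran from -0.97 to 0.062. For ASP averaged, H2-Aa ran from -0.17 to 0.36, H2-Eb1 from -0.011 to 0.44 and Ciita from -0.11 to 0.12. For the genotype averaged, H2-Aa ran from -0.024 to 0.50, H2-Ab1 from -0.042 to 0.26, H2-Eb1 from -0.046 to 0.42, Cd74 from -0.18 to 0.27 and Ctss from -0.13 to 0.37.

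Replicate numbers showed no clear pairing of the samples: 4 of 18 pairs with the same number in different groups correlated over 0.1, with r from -0.19 to 0.13, against -0.29 to 0.22 for other numbers. The labels state no pairing, and these correlations cannot exclude a batch shared by some libraries. The replicate block changed no member's call. H2-DMb1, at 24 to 113 counts, and H2-DMa, at 34 to 279, have the least depth of the chains and loading factors.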
